A study of Homo sapiens with 8 samples.

Results

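Kinesins are microtubule motor proteins driven by ATP: most step along microtubules, and some shorten their ends. The family described here is every gene on the array whose symbol begins with KIF followed by a digit or C, antisense genes left out: 41 genes, read by 85 probe sets, of 19775 genes and 54613 probe sets in all. Where several probe sets read a gene, the one brightest on average across the 8 arrays was used. By textbook role 13 were grouped as mitotic, 15 as transport motors, and 13 as other, a group of microtubule-end regulators, ciliary or centriolar motors and members of unclear role. KIF2A and KIF24, placed among the others, could also be counted as mitotic. Then 6 of 15 mitotic and 0 of 11 other kinesins fell on soft (limma, adjusted p under 0.05), where 5.93% of all genes fell. This grouping was added after the values were seen, with KIF2A already called lower, so its counts follow from that choice.

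The cells were MDA-MB-231, an established human triple-negative breast cancer line that carries mutant p53, grown in DMEM/F12 medium with serum, glutamine and antibiotics. They were kept for 2 days on either a stiff or a soft substrate, and no other treatment separates the groups. There were 4 biological replicates per substrate, A to D, each with its own array of total RNA. The stiffness of either substrate is not given in the sources used here, and 1 cell line was used. The labels call the replicates biological without saying what sets them apart, so a p-value speaks of the spread among these arrays, which may be technical. The title names mechanical cues, the mevalonate pathway and RhoA as the subject of the study; the kinesin comparison asks which motors differed in RNA level between the substrates.

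Mitotic kinesins build and move the spindle: some slide microtubules apart, some shorten their ends, some carry proteins to the midzone where the cell divides. Their genes are transcribed mostly in the G2 and M phases of the cell cycle, so their RNA is known to follow the share of dividing cells. Transport kinesins carry vesicles, mitochondria, lysosomes and endosomes, most of them outward from the cell centre, and are expressed in cells that do not divide as well.

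In dividing cells many genes of late cell cycle phases hold a CHR element (TTTGAA or its variant TTCGAA) near a CCAAT box, the motif bound by NF-Y. Both were searched on both strands in the RefSeq promoters, which run from 250 bases before to 50 after the gene start in build GRCh38.p14. A promoter was found for 33 of the 41 kinesins. Of 13 mitotic kinesin promoters 10 (76.9%) held TTTGAA or TTCGAA and 10 (76.9%) held CCAAT, with 9 (69.2%) holding both. Of 27305 promoters of all genes of the same length, 16.6% held the first motif, 35.7% held CCAAT and 6.58% held both. Of 11 transport kinesin promoters 1 (9.09%) held the first motif, 3 (27.3%) held CCAAT and 1 (9.09%) held both.

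The promoters of the 4 mitotic kinesins with the largest differences past the threshold are shown, and that of KIF5B, a transport kinesin, for contrast. They lie at chr10:89701340-89701639 (plus strand), chr3:44761544-44761843 (plus strand), chr11:28108107-28108406 (minus strand), chr1:44739587-44739886 (plus strand) and chr10:32056376-32056675 (minus strand). Capitals mark every match of the CHR element or of CCAAT on either strand; a match on the other strand appears as its reverse complement. KIF18A holds TTTGAA at position -10 and CCAAT at position -45 from the gene start, and KIF15 holds the first motif at position -35. KIF2C holds neither motif in this window, while KIF5B holds both, at positions -140 and -59. Such matches are described only by their letters.
KIF20B: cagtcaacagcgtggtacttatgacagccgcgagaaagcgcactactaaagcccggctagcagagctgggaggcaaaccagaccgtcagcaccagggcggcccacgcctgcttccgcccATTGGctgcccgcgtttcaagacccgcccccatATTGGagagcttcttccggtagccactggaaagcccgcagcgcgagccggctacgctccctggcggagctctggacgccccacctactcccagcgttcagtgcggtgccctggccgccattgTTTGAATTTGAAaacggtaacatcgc
KIF15: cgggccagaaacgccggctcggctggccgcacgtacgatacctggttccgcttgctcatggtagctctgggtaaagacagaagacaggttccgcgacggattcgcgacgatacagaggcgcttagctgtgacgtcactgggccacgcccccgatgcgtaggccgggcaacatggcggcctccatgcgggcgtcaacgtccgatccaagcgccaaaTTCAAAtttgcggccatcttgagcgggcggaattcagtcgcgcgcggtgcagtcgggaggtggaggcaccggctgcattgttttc
KIF18A: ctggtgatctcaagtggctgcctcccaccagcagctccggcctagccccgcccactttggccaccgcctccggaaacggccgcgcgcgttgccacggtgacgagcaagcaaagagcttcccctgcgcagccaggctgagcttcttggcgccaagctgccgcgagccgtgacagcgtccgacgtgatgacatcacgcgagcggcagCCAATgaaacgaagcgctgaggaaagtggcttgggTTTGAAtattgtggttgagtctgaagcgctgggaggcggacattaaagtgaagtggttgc
KIF2C: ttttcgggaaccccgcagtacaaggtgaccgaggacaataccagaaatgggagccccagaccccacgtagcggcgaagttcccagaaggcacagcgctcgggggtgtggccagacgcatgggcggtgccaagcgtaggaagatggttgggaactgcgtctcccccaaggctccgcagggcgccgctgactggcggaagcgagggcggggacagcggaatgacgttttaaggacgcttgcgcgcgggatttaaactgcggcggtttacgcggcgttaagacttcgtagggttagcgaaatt
KIF5B: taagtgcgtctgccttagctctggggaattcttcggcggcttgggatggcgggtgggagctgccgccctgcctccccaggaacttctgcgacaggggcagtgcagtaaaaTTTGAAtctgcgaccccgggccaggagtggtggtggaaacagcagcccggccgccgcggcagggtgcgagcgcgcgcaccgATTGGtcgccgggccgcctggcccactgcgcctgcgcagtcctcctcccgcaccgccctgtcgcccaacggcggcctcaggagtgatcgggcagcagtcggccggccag

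Mitotic kinesins leaned lower on the soft substrate, with 5 of 13 past the test, while none of the transport kinesins fell and 3 of 15 rose. Levels are log2 values of the authors' RMA summary, differences are soft minus stiff on that scale, and a gene was called when its adjusted p in limma, adjusted over the 54613 probe sets, was under 0.05. Of the 41 kinesins 6 fell, 3 rose and 32 did not pass. That is 9 genes or 22%, where 10.3% of all genes and 9.27% of all probe sets were called. Without stiff B 2 of the 41 kinesins were called, where 5.52% of all genes were. Of the 13 mitotic kinesins 5 fell and none rose (38.5%, where 5.93% of all genes fell), with a median difference of -0.28 against 0.0075 over all genes. Of the 15 transport kinesins 3 rose and none fell (20%, where 4.39% of all genes rose), with a median of 0.0125. Of the 13 other kinesins KIF2A fell and none rose, with a median of -0.035.

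Dim genes are less often called, so the counts were also read against bright genes. A background level of 6.26 was taken from genes that breast cells do not use. A group mean above it was found for 12 mitotic, 12 transport and 5 other kinesins. Among the 11400 genes above it 16.8% were called: 9.7% fell and 7.09% rose. Every one of the 12 mitotic kinesins above background had a difference below 0, from -0.12 to -0.45. The mitotic member under background, KIF2B, a spindle motor of the kinesin-13 family, differed by 0.028.

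**Figure D1:**
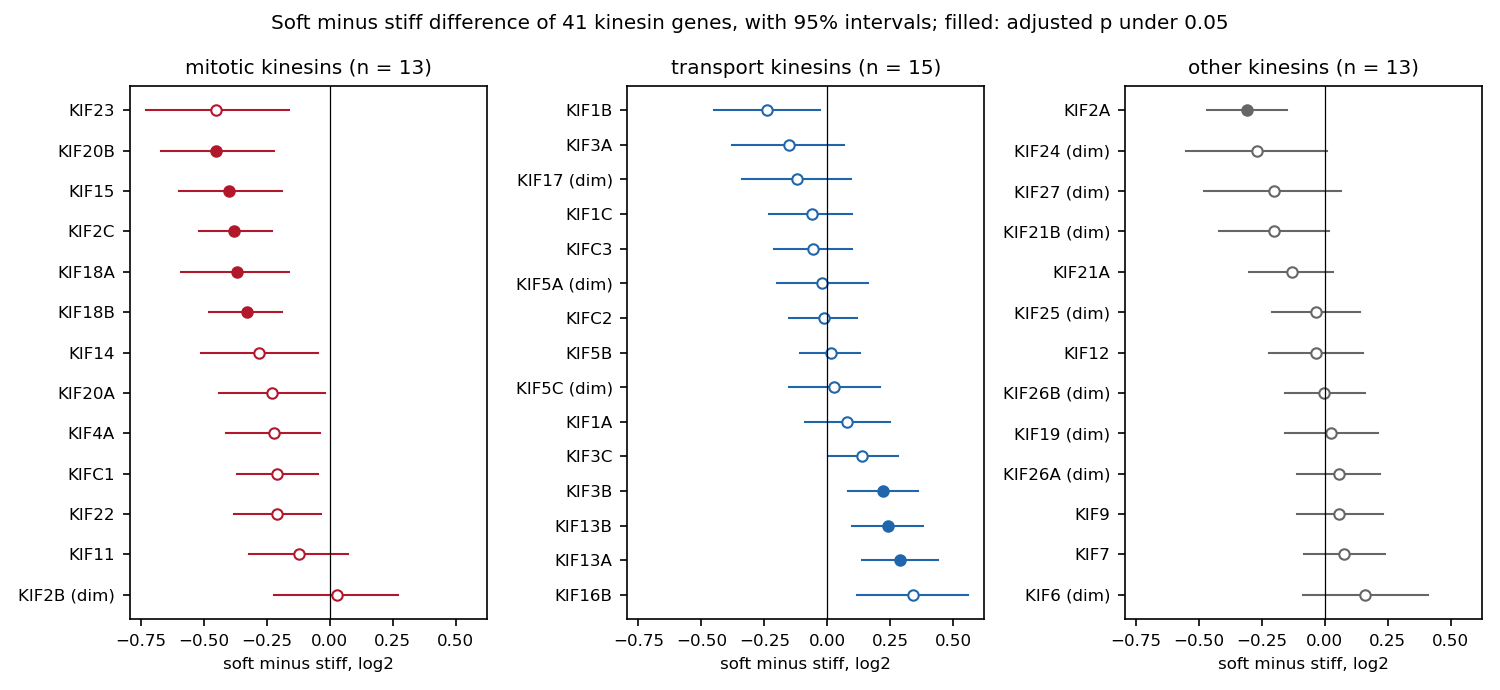
Soft minus stiff difference (log2) of each of 41 kinesins with its 95% interval, by role. Filled points have an adjusted p under 0.05 in limma and "dim" marks genes under the background level of 6.26. Of the mitotic kinesins 12 of 13 lie left of 0, the transport kinesins lie on both sides.

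KIF2C, the depolymerase that corrects faulty attachments of chromosomes to the spindle, had the smallest adjusted p of the family. On stiff it read 12.21, 12.24, 12.10 and 12.13 on arrays A to D, and on soft 11.72, 11.76, 11.90 and 11.79. The highest soft array lies below the lowest stiff array, and soft cells held 1.30-fold less (difference -0.38, SE 0.0649, limma adjusted p = 0.00562). A second probe set of the gene fell by 0.41 (adjusted p = 0.00828). At the probe sets used it alone among the 41 kinesins passed at an adjusted p under 0.01.

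KIF18B, a kinesin-8 that works with KIF2C on the microtubules reaching toward the cell cortex, read 10.79, 10.77, 10.66 and 10.66 on stiff and 10.28, 10.39, 10.47 and 10.40 on soft. The groups did not overlap and the difference was -0.33 (SE 0.0656, adjusted p = 0.0104). Its relative KIF18A, which damps the swings of chromosomes at the spindle equator, read 9.76, 9.96, 9.72 and 9.72 on stiff and 9.18, 9.46, 9.64 and 9.39 on soft. Soft C came close to the lowest stiff arrays, and KIF18A fell by 0.37 (SE 0.0973, adjusted p = 0.0363). KIF2C and KIF18B kept their calls when any one array was left out. KIF18A kept its call in 1 of these 8 fits, without soft C (adjusted p up to 0.104, without stiff B).

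KIF20B, a motor needed for the final separation of daughter cells, read 10.62, 10.57, 10.38 and 10.35 on stiff and 9.74, 10.10, 10.16 and 10.13 on soft. Soft A lay well below the other soft arrays, yet all soft arrays lay below all stiff ones (difference -0.45, SE 0.102, adjusted p = 0.0208). Its call was lost without stiff A (adjusted p = 0.0569) or stiff B (0.0642). Both other probe sets of KIF20B lay under background, so the fall rests on 1 probe set. KIF15, which can replace KIF11 in holding the spindle poles apart, read 10.02, 10.04, 9.75 and 9.82 on stiff and 9.34, 9.44, 9.70 and 9.56 on soft. Stiff C and soft C nearly met, and KIF15 fell by 0.40 (SE 0.0943, adjusted p = 0.0242). It was not called without stiff A, stiff B, soft A or soft B (adjusted p = 0.065, 0.0747, 0.064 and 0.0654).

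**Figure D2:**
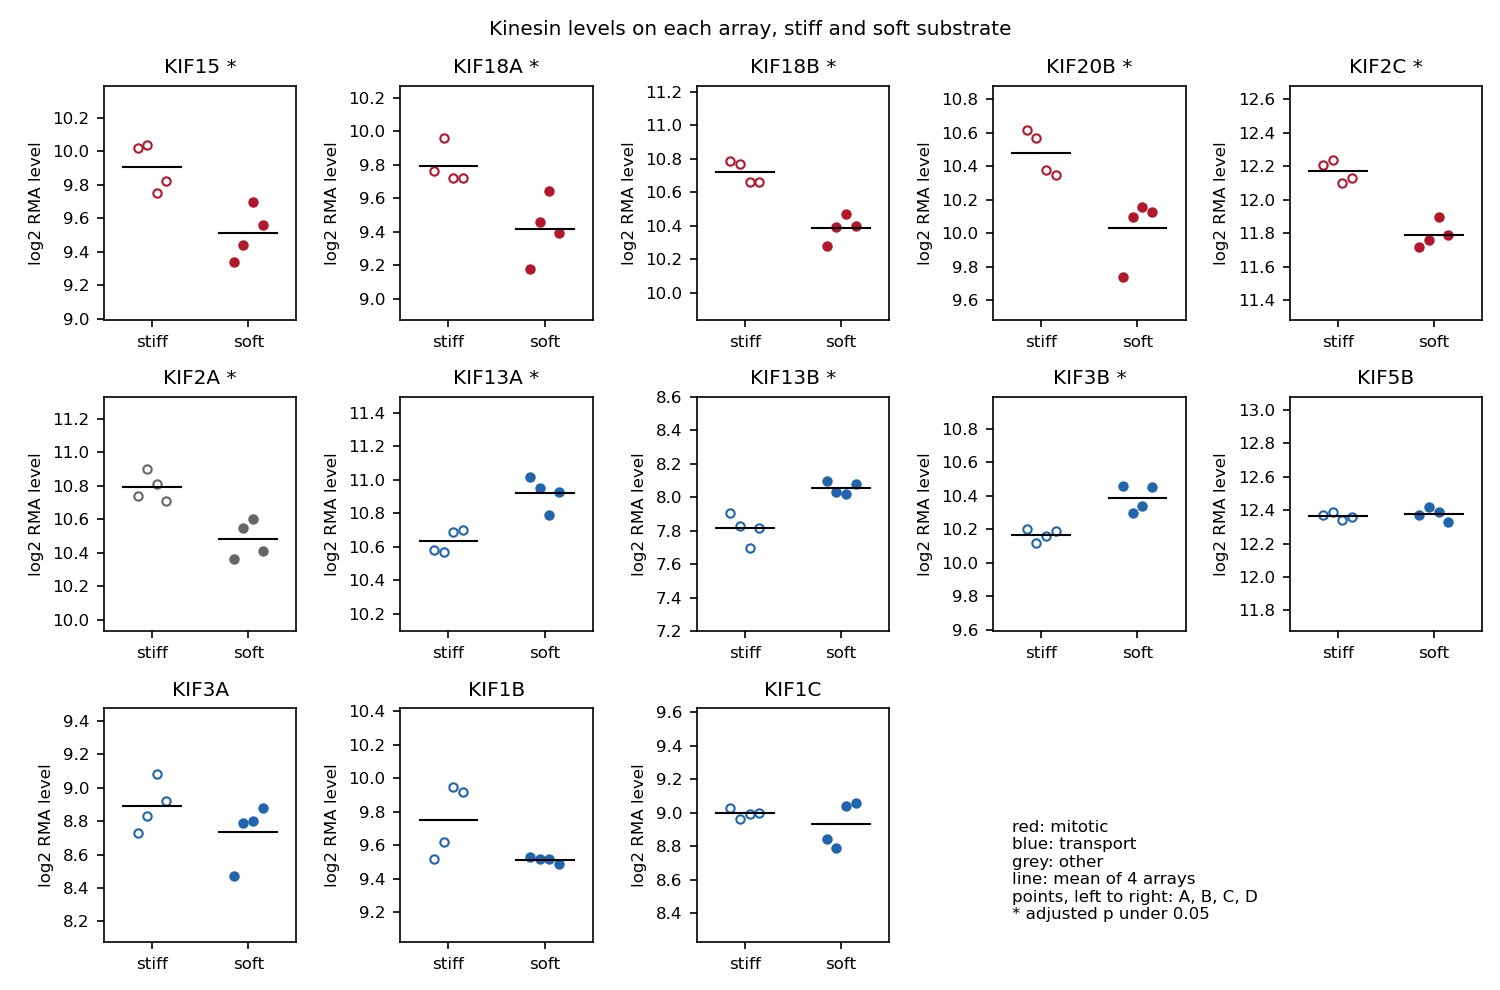
Log2 RMA level on each of the 4 stiff (open) and 4 soft (filled) arrays for the 9 kinesins called and 4 transport kinesins given whatever their result; lines are group means and every panel spans 1.4 log2 units. The 5 mitotic kinesins and KIF2A lie lower on every soft array, KIF13A, KIF13B and KIF3B higher, and KIF5B at the same height.

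The other 7 mitotic kinesins above background had differences below 0 without passing. KIF23, the motor of the centralspindlin complex at the midzone, differed as much as KIF20B, by -0.45, but its soft arrays were spread from 9.97 to 10.72 (SE 0.129, adjusted p = 0.0531). Without soft C it was called (adjusted p = 0.0133). KIF14, which acts in cytokinesis, differed by -0.28 at the probe set used (adjusted p = 0.135), while its other probe set fell by 0.39 (SE 0.0741, adjusted p = 0.00873). That probe set read 10.09, 10.11, 9.99 and 10.01 on stiff and 9.48, 9.65, 9.76 and 9.74 on soft, with no overlap.

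KIF20A, which brings the chromosomal passenger complex to the midzone, differed by -0.23 (adjusted p = 0.176). KIF4A, a motor on chromosome arms and the partner of PRC1, differed by -0.22 (adjusted p = 0.135). KIFC1, a minus-end motor that focuses spindle poles, differed by -0.21 (adjusted p = 0.112) with no overlap between groups, and KIF22, which pushes chromosomes toward the equator, by -0.21 (adjusted p = 0.131). The smallest shift above background was that of KIF11, the motor that drives the spindle poles apart and the target of several mitotic inhibitors. It read 11.13, 11.15, 11 and 10.94 on stiff and 10.69, 11.01, 11 and 11.03 on soft. Apart from soft A these arrays overlap, and the difference of -0.12 had a 95% interval from -0.32 to 0.071.

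The mitotic kinesins varied together within each group as well. Soft A was the lowest of the 8 arrays for 12 of the 12 above background, and soft C was the highest soft array for 9 of them. Stiff B or stiff A was the highest of all arrays for 11 of 12, with 7 at stiff B and 4 at stiff A. This order of arrays was not counted over all genes, so it is not shown to be particular to mitotic kinesins. Soft A also lay furthest out on the first principal component of all probe sets (35.3, other soft arrays 9.4 to 22.3). The mean deviation of the 13 genes from their own 8-array means was 0.22 and 0.231 on stiff A and B, and 0.048 and 0.058 on stiff C and D. On soft A to D it was -0.315, -0.156, -0.014 and -0.072. Stiff C and D therefore lie nearer to soft C than to stiff A and B on this scale. Stiff A and B also stood apart from stiff C and D on the second principal component of all probe sets (16.4% of the variance).

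Set against either pair of stiff arrays alone, the 4 soft arrays gave different sizes. Against stiff A and B the median difference of the mitotic kinesins was -0.388 with 5 called, among them KIF20A (-0.39, adjusted p = 0.0491). Against stiff C and D the median was -0.248 with none called, KIF2C coming nearest (-0.32, adjusted p = 0.0624). These fits share their soft arrays and have fewer stiff arrays. The labels do not name these pairs. The split follows the array means given above, so the gap between the fits restates those means and is no separate test. Soft A carried the lowest weight of the 8 arrays when limma weighted them by quality (0.559), and without it 3 mitotic kinesins were called, with a median of -0.187. Without stiff A or without stiff B 2 were called, and without soft B 3. The median was below 0 in each of these fits.

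**Figure D3:**
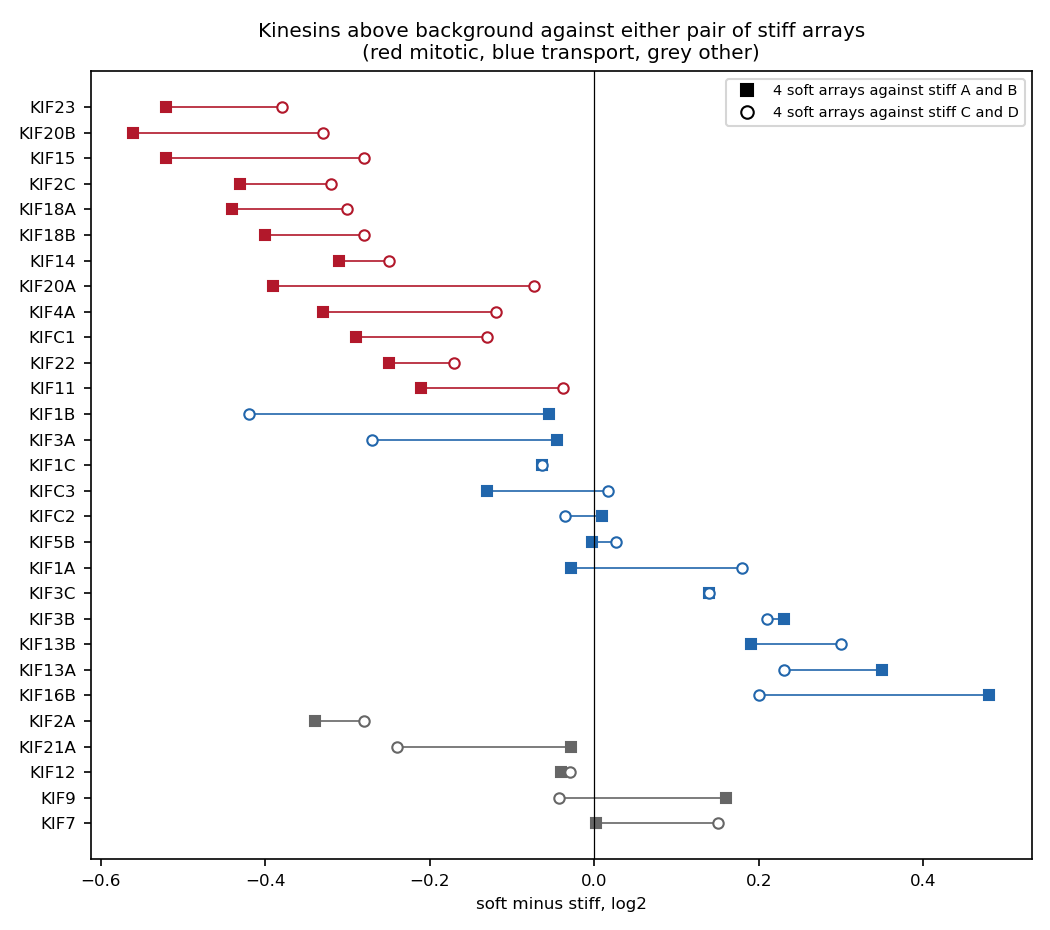
Soft minus stiff difference (log2) of the 29 kinesins above background when the 4 soft arrays are set against stiff A and B (squares) or stiff C and D (open circles). All 12 mitotic kinesins lie left of 0 in both and nearer to 0 against stiff C and D, while KIF1B and KIF3A lie further left against stiff C and D.

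Transport kinesins lay on both sides of 0, 7 below and 8 above. KIF5B, the heavy chain of conventional kinesin, read 12.37, 12.39, 12.34 and 12.36 on stiff and 12.37, 12.42, 12.39 and 12.33 on soft. The difference of 0.013 had a 95% interval from -0.11 to 0.13 (adjusted p = 0.927), the smallest standard error of the 41 kinesins, 0.0554. Its neuronal relatives KIF5A and KIF5C lay under background, as did KIF17.

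KIF13A, which moves vesicles and recycling endosomes, read 10.58, 10.57, 10.69 and 10.70 on stiff and 11.02, 10.95, 10.79 and 10.93 on soft. The groups did not overlap and KIF13A rose by 0.29 (SE 0.0687, adjusted p = 0.0251). Another probe set of the gene differed by 0.30 (adjusted p = 0.0647) and another by -0.095 (adjusted p = 0.545), so the probe sets of KIF13A disagree. KIF13B, a vesicle motor that binds the polarity protein DLG1, read 7.91, 7.83, 7.70 and 7.82 on stiff and 8.10, 8.03, 8.02 and 8.08 on soft. All soft arrays were higher, by 0.24 on average (SE 0.0635, adjusted p = 0.0366).

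KIF16B, which carries early endosomes outward, differed by 0.34, more than either KIF13 gene, but stiff D (7.37) lay above soft A (7.32) (SE 0.0982, adjusted p = 0.0539). It was called without stiff D (adjusted p = 0.0465) or soft A (0.0289). KIF13A was not called without stiff A, stiff B, soft A, soft B or soft D (adjusted p up to 0.0776). KIF13B was called in 2 of the 8 fits that leave out an array, those without stiff A and without soft C, and reached an adjusted p of 0.099 without stiff C. The number of transport kinesins called was 0 without stiff B, soft B or soft D, and 1 without stiff A, stiff C or soft A.

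Kinesin-2 is a heterotrimer of KIF3A with KIF3B or KIF3C and the accessory subunit KIFAP3, and serves cilia and vesicles. KIF3B read 10.20, 10.12, 10.16 and 10.19 on stiff and 10.46, 10.30, 10.34 and 10.45 on soft, a rise of 0.22 with no overlap (SE 0.0621, adjusted p = 0.0491). This value sits at the threshold, and KIF3B was called in none of the 8 fits that leave out an array (adjusted p = 0.0505 to 0.132). Its other probe set differed by 0.11 (adjusted p = 0.478). KIF3C differed by 0.14 (adjusted p = 0.201) with no overlap, and KIFAP3 by 0.14 (adjusted p = 0.268).

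KIF3A was read by probe sets that moved apart. The brighter one read 8.73, 8.83, 9.08 and 8.92 on stiff and 8.47, 8.79, 8.80 and 8.88 on soft, a difference of -0.15 (adjusted p = 0.41). The other read 7.93, 7.92, 8.13 and 8.06 on stiff and 8.17, 8.25, 8.34 and 8.28 on soft, and rose by 0.25 (SE 0.07, adjusted p = 0.0478). The first pair of groups overlaps and the second does not.

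KIF1B, whose isoforms carry mitochondria and synaptic vesicle precursors, read 9.52, 9.62, 9.95 and 9.92 on stiff and 9.53, 9.52, 9.52 and 9.49 on soft. Stiff A and B lie at or near the soft level and stiff C and D above it (difference -0.24, SE 0.0953, adjusted p = 0.158). With stiff A and B left out the difference was -0.42 (adjusted p = 0.017), and with stiff C and D left out -0.055 (adjusted p = 0.77). The labels do not name these pairs. KIF1B itself reads higher on stiff C and D, so these p-values restate that split and do not test it. A further bright probe set gave -0.095 (adjusted p = 0.626) and another 0.18 (adjusted p = 0.101). KIF1C, which carries vesicles and integrins to the cell rear, read 9.03, 8.96, 8.99 and 9 on stiff and 8.84, 8.79, 9.04 and 9.06 on soft. The soft arrays lie on both sides of the stiff ones, and the difference was -0.062 (95% interval -0.23 to 0.10).

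Of 16 kinesins with more than 1 probe set above background, 12 had all of them on one side of 0. KIF13A, KIF1B, KIF3A and KIFC2, all transport motors, had them on both sides. No kinesin was called in both directions. KIF14 and KIF3A were called at a probe set other than the one used.

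**Figure D4:**
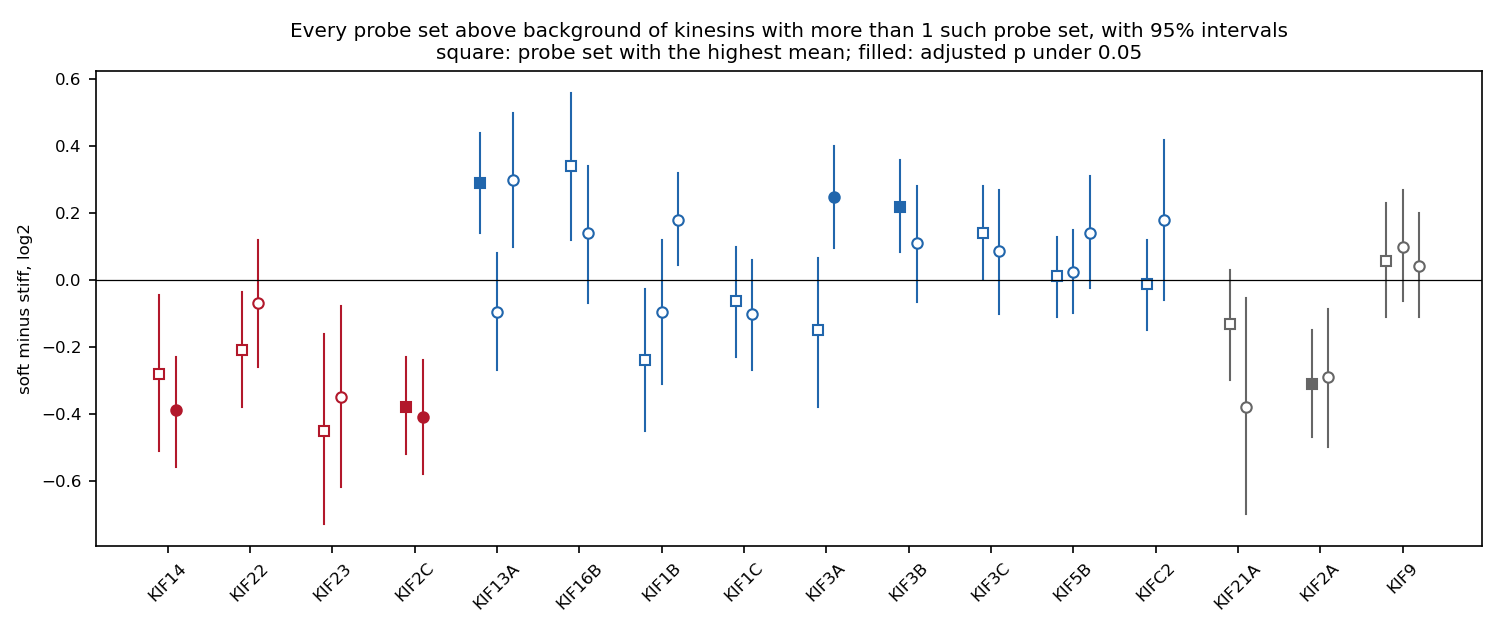
Soft minus stiff difference (log2) with 95% intervals of every probe set above background, for the 16 kinesins with more than 1 of them; the square is the probe set used and filled symbols have an adjusted p under 0.05. The probe sets of the mitotic KIF14, KIF22, KIF23 and KIF2C lie below 0 in each case, those of KIF13A, KIF1B, KIF3A and KIFC2 on both sides.

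Among the other kinesins KIF2A, a depolymerase of spindle poles that also trims microtubules in cells that do not divide, fell. It read 10.74, 10.90, 10.81 and 10.71 on stiff and 10.36, 10.55, 10.60 and 10.41 on soft, without overlap (difference -0.31, SE 0.0743, adjusted p = 0.0253). Its other probe set differed by -0.29 (adjusted p = 0.079). The call was lost without stiff B, stiff C, soft A or soft D (adjusted p up to 0.0789). KIF21A, which slows microtubule growth at the cortex, differed by -0.13 (adjusted p = 0.327) and by -0.38 at its other probe set (adjusted p = 0.148). KIF7, a ciliary regulator of Hedgehog signalling, differed by 0.077 and KIF9 by 0.057. Of this group 8 lay under background, among them KIF21B, KIF24, KIF26A, KIF26B and KIF27.

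Of 18 measured partners of mitotic kinesins, all above background, 10 fell and none rose (55.6%), where 5.93% of all genes and 9.7% of those above background fell. Their median difference was -0.272, and that of MAPRE3, a microtubule-end protein, was above 0 (0.07). The spindle protein HMMR fell by 0.68 (SE 0.123, adjusted p = 0.00697), the kinase PLK1 by 0.44 (SE 0.0892, adjusted p = 0.0124), the passenger complex subunit CDCA8 by 0.39 (SE 0.0888, adjusted p = 0.0191) and its kinase AURKB by 0.38 (SE 0.0684, adjusted p = 0.00708). The kinesin CENPE, which is not named KIF and guides chromosomes at kinetochores, fell by 0.34 (adjusted p = 0.0265). RACGAP1, which forms centralspindlin with KIF23, fell by 0.25 (adjusted p = 0.0327), and PRC1 differed by -0.23 (adjusted p = 0.114). This count of 10 was 3 without stiff A, stiff B or soft A, 5 without soft B or soft D, and 0 against stiff C and D alone.

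Of 19 genes of the cell cycle that are neither kinesins nor these partners, 7 fell, none rose and 12 did not pass (36.8% lower, where 5.93% of all genes and 9.7% of those above background fell). Their median difference was -0.27. The checkpoint protein MAD2L1 fell by 0.65 (SE 0.144), the spindle kinase TTK by 0.46 (SE 0.08), cyclin A2 (CCNA2) by 0.41 (SE 0.09) and the anaphase activator CDC20 by 0.39 (SE 0.0657), with adjusted p = 0.0176, 0.00599, 0.0171 and 0.00525. MKI67, a marker of proliferation, differed by -0.30 (adjusted p = 0.0824). The mean deviation of this list ran from 0.094 to 0.167 on stiff and from -0.286 to -0.031 on soft, soft A again lowest. Without stiff B 4 of these genes were called. The part of this list in the kinesin result was not tested. In bulk RNA, fewer cells in mitosis and less of these RNAs per mitotic cell cannot be told apart.

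Of 25 measured partners of transport kinesins 4 rose and none fell (16%, where 4.39% of all genes and 7.09% of those above background rose), with a median of 0.095. PLEKHM1, an adaptor of late endosomes and lysosomes, rose by 0.39 (SE 0.073, adjusted p = 0.00825), and KLC1, a light chain of conventional kinesin, by 0.37 (SE 0.0672, adjusted p = 0.00738). TRAK1, which links mitochondria to KIF5 motors, rose by 0.30 (SE 0.0579, adjusted p = 0.00975), and MAPK8IP3, a scaffold for axonal cargo, by 0.27 (SE 0.0674, adjusted p = 0.0291). The interval of KIF5B, the heavy chain that KLC1 binds, includes 0. Of 26 subunits and regulators of cytoplasmic dynein, which walks opposite to most transport kinesins, 2 rose and 1 fell, with a median of 0.0663. That share, 11.5%, is near the 10.3% of all genes called and below the 16.8% of genes above background. Ranges of the groups did not overlap for 11 of the 26 (42.3%), 8 higher and 3 lower on soft, where 19.9% of all genes did so. Of the 26, 24 lie above background, and this share was not computed for genes above background alone. Differences lay above 0 for 20 of these genes and below it for 6. DYNLT3 rose by 0.27 (adjusted p = 0.0469) and DYNLRB1 by 0.25 (adjusted p = 0.0175), and the adaptor BICD1 fell by 0.25 (adjusted p = 0.0353). The count of 2 was 1 without stiff A, stiff B, soft A, soft B or soft D, and 0 without stiff C.

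**Figure D5:**
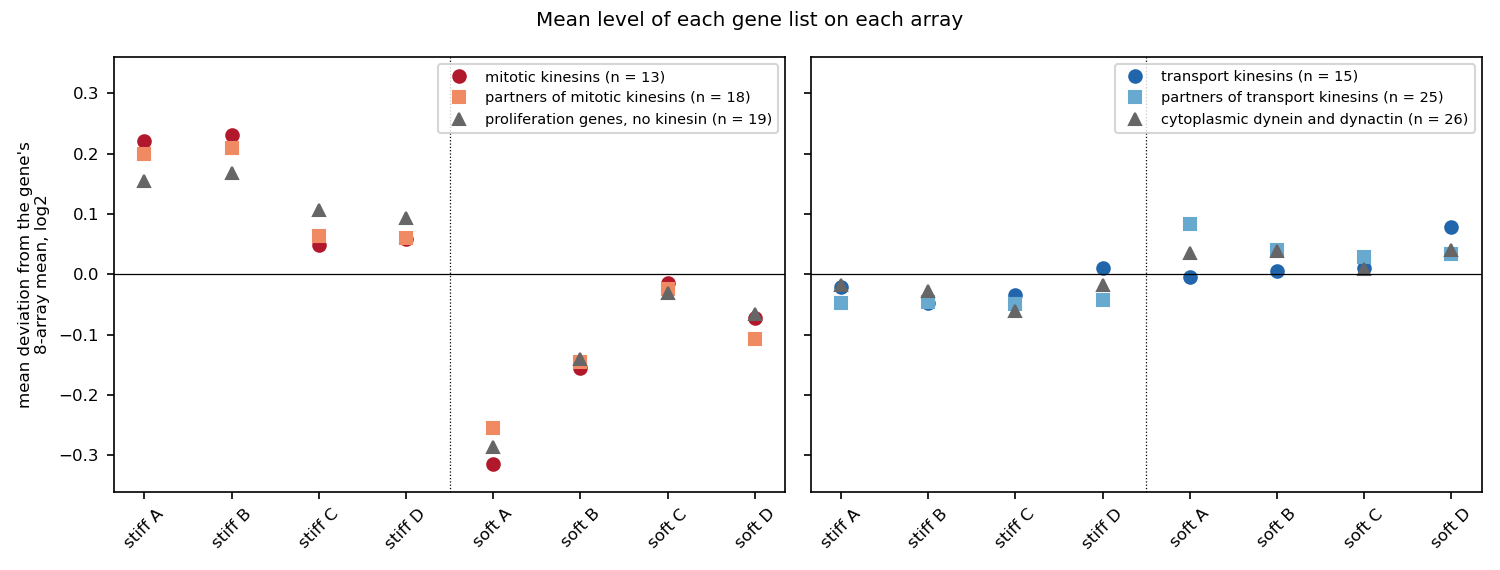
Mean deviation of each gene list from its genes' 8-array means (log2) on each array; stiff arrays left, soft arrays right of the dotted line. Mitotic kinesins, their partners and other proliferation genes run from 0.231 on stiff B to -0.315 on soft A for the kinesins, while the transport and dynein lists stay between -0.061 and 0.084.

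On the single arrays the gap between the mitotic and transport means separated the substrates. The mean deviation of mitotic minus that of transport kinesins was 0.241, 0.278, 0.083 and 0.047 on stiff A to D and -0.311, -0.161, -0.025 and -0.151 on soft A to D, so the groups did not overlap. The mitotic mean alone ran from 0.048 to 0.231 on stiff and from -0.315 to -0.014 on soft, without overlap. The transport mean alone ran from -0.047 to 0.011 on stiff and from -0.004 to 0.079 on soft, which overlap. Ranges of the groups did not overlap for 7 mitotic kinesins, all lower on soft, and for 4 transport kinesins, all higher, where 11.2% and 8.78% of all genes did so. Over the family 12 of 41 (29.3%) did so in either direction, where 19.9% of all genes did. These shares were not computed for genes above background alone.

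Arrays correlated at 0.9932 to 0.9982 over all probe sets and none were identical. The line's own markers VIM, CD44, EGFR, AXL and CAV1 were far above background (11.73 to 14.58). PGR (3.62) and CDH1 (4.26) lay under it, ESR1 (6.41) just above it and ERBB2 (7.98) further above it. Of these 9 genes 1 was called (11.1%, where 10.3% of all genes were): AXL fell by 0.23 (adjusted p = 0.0318). Of the markers of other cells, none of 8 fibroblast and 6 blood genes were called, and of 5 endothelial genes PECAM1 rose by 0.49 (adjusted p = 0.00211), with CDH5 (4.22) and VWF (5.96) under background. A group mean above background was found for 2 fibroblast genes, among them COL1A1 (7.64), for 2 blood genes, among them LYZ (6.74), and for PECAM1 (7.77). Summed log2 levels of these lists ran from 41.1 to 42.1 on stiff and 40.9 to 42.2 on soft for fibroblast genes, 31.6 to 33.6 and 32.6 to 33.9 for blood genes, and 26.9 to 27.9 and 27.5 to 27.9 for endothelial genes. Their part in the kinesin result was not tested.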

How the data were processed

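RNA of 8 samples was hybridised to Affymetrix arrays. The deposited values are log2 levels per probe set and array, made by the authors with RMA, per the submitters' processing notes; RMA equalises the arrays and thereby removes any shift shared by all genes. Software version and probe definition are not given in the sources used here. Of 54675 probe sets 62 controls were left out. The platform table gave 1 symbol to 41091 probe sets, several to 1801 and none to 11721. Soft and stiff were compared with limma 3.58.1 in R 4.3.3 (lmFit, eBayes without trend or filter), adjusted by Benjamini-Hochberg over 54613 probe sets, threshold 0.05, all tests two-sided. Intervals are 95% from the moderated error. Background is the 95th percentile of 16 genes taken as silent. The number of arrays limits the precision.

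Members and lists were chosen with earlier results of these data known. Arrays are given in full for every kinesin past the threshold and for KIF5B, KIF3A, KIF1B, KIF1C and KIF13A; the arrays of KIF11 and of second probe sets were added after their values were seen. Of each other list, up to 4 genes with the largest differences past the threshold are named; CENPE, RACGAP1, PRC1, KIFAP3, MAPRE3 and MKI67 were added likewise. On simulated data of soft against stiff over 54613 probe sets, 58% of 100 differences of 0.5 and 97% of 100 of 1 were recovered, with 7 false calls in all; no difference as small as those of the kinesins, at most 0.45, was simulated. Alternatives were 23 settings, and another placing of KIF2A and KIF24 chosen after seeing the data.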

Additional observations from a re-analysis of the deposited data

Results flagged for a closer look

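Of 88 groups of 4 arrays examined (41 kinesins and the means of their 3 roles on either substrate), 5 held an array far from the other 3, by the gap to its nearest neighbour as a share of the group's range. Chance gives about 1 in 20. On soft, array A stood apart for KIF11 (10.69 against 11 to 11.03, share 0.912), KIF20B (9.74 against 10.1 to 10.16, share 0.857) and KIF19, a ciliary kinesin under background (6.4 against 6.05 to 6.09, share 0.886). Soft D stood apart for KIFC2 (7.93 against 7.81 to 7.83, share 0.833). On stiff, array B stood apart for KIF18A (9.96 against 9.72 to 9.76, share 0.833).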

How the results depend on the processing

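KIF2C kept its call in 22 of 23 settings and KIF18B, which has 1 probe set, in 20 of 22. Counts of calls moved more. With all arrays 9 kinesins were called, 5 mitotic lower, 3 transport higher and 1 other lower, beside 10 mitotic partners lower, 4 transport partners higher, 2 dynein genes higher and 7 proliferation genes lower. Leaving out each array gave, in that order, 2 to 9, 2 to 6, 0 to 2, 0 to 1, 3 to 10, 3 to 5, 0 to 2 and 4 to 9. All kinesins numbered 4 without stiff A, 2 without stiff B, 5 without stiff C, and 4 without soft A, soft B or soft D. Fewer samples enter these fits. Of all genes 7.07%, 5.52%, 6.69%, 6.68%, 6.85% and 6.36% were called in them, in that order, against 10.3% with all arrays. Without stiff B the 2 of 41 kinesins are no larger a share than that of all genes. Transport kinesins numbered 0 without stiff B, soft B or soft D, and proliferation genes 4 without stiff B. The mitotic median ran from -0.357 to -0.187 and the transport median from 0.000833 to 0.0208.

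Deviations from the group means were weakly correlated between soft and stiff arrays of the same letter (0.122, -0.118, 0.0516 and -0.0447 for A to D). Unlike letters were not compared, so these values do not settle whether the letters pair the samples. With the replicate block 5 kinesins were called, 3 mitotic, 1 transport, with 3 mitotic partners and 0 dynein genes. Of the 9, KIF2C, KIF18B, KIF18A and KIF2A kept their calls; KIF15, KIF20B, KIF13A, KIF13B and KIF3B lost them, and the transport call was KIF16B. Against stiff A and B alone 1 transport kinesin, 0 other kinesins, 2 transport partners, 1 dynein gene and 4 proliferation genes were called, and the mitotic median was -0.388. Against stiff C and D alone 1 kinesin was called, KIF1B, a transport motor lower on soft, with 0 mitotic, 0 transport higher, 0 other, and 0 in each other list. KIF1B reads highest on those stiff arrays, so its call follows from the choice of pair. At an adjusted p under 0.01, 1 kinesin (mitotic) remained, with 0 transport, 0 other, 2 mitotic partners, 0 dynein and 3 proliferation genes. With at least 1.2-fold, 1 transport and 1 dynein gene passed. Without probe sets marked as shared 5 of 36 kinesins were called, 3 of 9 mitotic and 0 of 12 other, with 2 of 22 transport partners. Fewer genes have a second probe set. It called 3 of 26 kinesins: 2 of 5 mitotic, 1 of 13 transport and 0 of 8 other. It called 2 of 10 mitotic partners and 3 of 13 proliferation genes, and the transport median was 0.1. The mean of all probe sets called 1 transport kinesin, with a median of 0.06. Dynein genes numbered 4 with cyclic loess and 1 with median centring or array weights. With the filters at background and at the median level and with the trended variance model they numbered 6 of 24, 25 and 26. Proliferation genes numbered 11 above the median level and with the trended model. Among all genes 28.1% were called above background, 24.7% above the median level and 15% with the trended model, against 10.3% in the main fit. Among kinesins called in any setting, directions turned for KIF13A, KIF20B and KIF3A. KIF13A turned at its next probe set, also the one used without shared marks (-0.095). KIF20B turned at its second (0.053, under background) and KIF3A at its second (0.25). Kinesins called in no setting turned as well, such as KIFC2 (main direction kept in 16 of 23 settings) and KIF26B (15 of 22). With KIF2A and KIF24 counted as mitotic, chosen after seeing the data, 0 other kinesins were called. The cause was not tested. No scaling moved the median of all genes by more than 0.1. Over all genes the calls numbered 2040, against 603 at the stricter threshold, 1092 without stiff B and 835 against stiff C and D alone. Of the calls over all genes 57.5% were lower on soft, and 63.2% with median centring.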
